A study of Mus musculus with 8 samples.

Results

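The genes described here encode the initiation and elongation factors of cytosolic translation. Of the 17097 genes with a probe set naming exactly 1 gene on the array, 45 have a symbol that begins with Eif1 to Eif6 or with Eef1 or Eef2. Genes for eIF2 kinases (Eif2ak), eEF2 kinase (Eef2k), the multisynthetase protein Eef1e1 and the Y-linked Eif2s3y were left out, and where a gene had several probe sets, the brightest on average stood for it. Their 94 probe sets include 17 genes with 1 probe set and 28 with several. The 8 arrays hold total RNA of mouse acute myeloid leukaemia (AML) cell lines. By the labels, 4 arrays form the group Trib1 hi, whose cells carry Hoxa9 plus Trib1, and 4 form the group Trib1 null, whose cells carry Hoxa9 without Trib1. Hoxa9 is a homeobox gene able to keep myeloid progenitors dividing. The leukaemias of both groups arose in mice with both copies of Trib1 knocked out, and both were kept without treatment in medium with 10% serum and 5 ng/ml of the cytokine IL-3. Trib1 encodes a pseudokinase that marks C/EBP alpha, a regulator of granulocyte maturation, for breakdown. The labels do not give the number of clones, the ages of the mice, or separate cultures for the arrays of a group, and the spread behind each p-value, which lies between these arrays, may be technical.

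Translation initiation begins when eIF2, carrying GTP and the initiator tRNA, joins the small ribosomal subunit together with eIF1, eIF1A, eIF3 and eIF5. eIF4F, built from the cap-binding protein eIF4E, the helicase eIF4A and the scaffold eIF4G, brings the complex to the capped mRNA. 4E-BP proteins hold eIF4E back until the kinase complex mTORC1 phosphorylates them, and eIF2B recharges eIF2 with GTP unless eIF2 kinases block it. eEF1 then delivers aminoacyl-tRNAs to the ribosome and eEF2 moves the ribosome along the mRNA.

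Several facts of the arrays touch every value below. Intensities are linear values of MAS5, the Affymetrix algorithm that scales each array, as deposited. The array Trib1 hi 3 and, less so, Trib1 null 1 had compressed signals, with 95th percentiles of 3733 and 3972 against 4265 to 4967 on the other 6 arrays. Their medians were 68.3 and 9.56 against 3.71 to 4.94. The Trib1 probe set read 5.92 to 122 in the Trib1 hi group and 206 to 304 in the Trib1 null group, the reverse of the labels; limma called it lower without overlap (adjusted p = 0.0498), though every array lay below 500. Hoxa9, which the labels name for both groups, read 10.0 to 391 and 969 to 1075, at least 2.05-fold lower (adjusted p = 5.15e-06). Whether the labels are exchanged was not tested; if they were, every direction given here would turn. Groups are named as labelled. Of 10 myeloid marker genes, 8 read over 500 on every array (not Spi1 and Mpo), whereas 8 of 8 measured lymphoid and 5 of 5 erythroid markers read below 500 on every array, as did 9 of 10 fibroblast and endothelial markers; the exception, Pecam1, is also made by myeloid cells. The summed myeloid marker signal was 60861 to 86981 in the group labelled Trib1 hi and 73568 to 89211 in the other. Because arrays differ at low intensity, signals below 500 were set to 500 before folds of group means were taken. In bulk RNA, fewer cells of a type and less RNA per cell cannot be told apart.

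More translation factor genes were called higher than lower in the arrays labelled Trib1 hi. Of the 45 genes, 17 were called higher and 2 lower by limma's moderated test at a Benjamini-Hochberg adjusted p under 0.05 over 12250 genes. Over all tested genes 11.1% were called higher and 19.7% lower. The increases were led by Eif4ebp1 (2.32-fold), Eif1a (2.31-fold) and Eif1ad (1.92-fold), and the decreases were of Eif1b (1.23-fold) and Eif4e3 (1.20-fold). All 45 passed the filter on low values, and 39 read over 500 on every array. Since 35 of the 45 had a mean intensity over 2000, bright genes are the nearer background. Of 2611 tested genes with such a mean, 29.0% were called higher and 22.6% lower, against 14 higher and 2 lower of the 35 members. The median log2 difference of those 35 members was 0.28 and of all 2611 bright genes 0.07, while it was 0.28 over the 45 members and 0.04 over all 12250 genes. In 13 of the 17 higher genes and both lower ones the groups did not overlap. Over all tested genes the same held for 1157 of the 1363 called higher (9.44% of tested genes). It also held for 1794 of the 2409 called lower (14.6% of tested genes).

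The array Trib1 hi 3 bears on these counts. Among the 39 genes over 500 on every array, it was the lowest of its group in 35, and Trib1 null 1 was the lowest of its group in 32. Relative to the mean of the arrays labelled Trib1 null, the median log2 level of the 39 genes was 0.44 on Trib1 hi 1, 0.40 on Trib1 hi 2, 0.35 on Trib1 hi 4 and -0.11 on Trib1 hi 3, and it was -0.13 to 0.09 on the 4 arrays labelled Trib1 null. Other bright genes moved the same way by array, at 0.19, 0.18, 0.13 and -0.25 on the arrays labelled Trib1 hi. Without Trib1 hi 3, 31 of the 45 were called higher and 5 lower; among the 35 bright members the counts were 28 and 2, against 49.6% and 23.7% of bright genes. Quantile normalization, which gives all arrays the same distribution, also gave 31 higher and 5 lower of 45, where 27.3% and 27.4% of all tested genes were called, and 27 and 4 of the 35 bright members, where 40.1% and 41.0% of bright genes were. The 17 genes first called higher were among the 31 in both settings, and 30 genes were higher in both. Eif1b and Eif4e3 were the 2 genes lower in both. Scaling all arrays to the same median, a quantity that ran from 3.71 to 68.3, left 0 members called: the median log2 difference then moved to -0.80 over all genes and -0.58 over the 45 members, and 2 of the 35 bright members were positive. Of the genes called higher, Eif1a, Eif1ad, Eif2b2, Eif3b and Eif3c passed in 21 of 22 alternatives, all but equal array medians. Others lost the call when all probe sets of a gene were averaged, dim ones included, or when the variance was fitted without a trend or without sharing between genes, as given with each below.

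**Figure D1:**
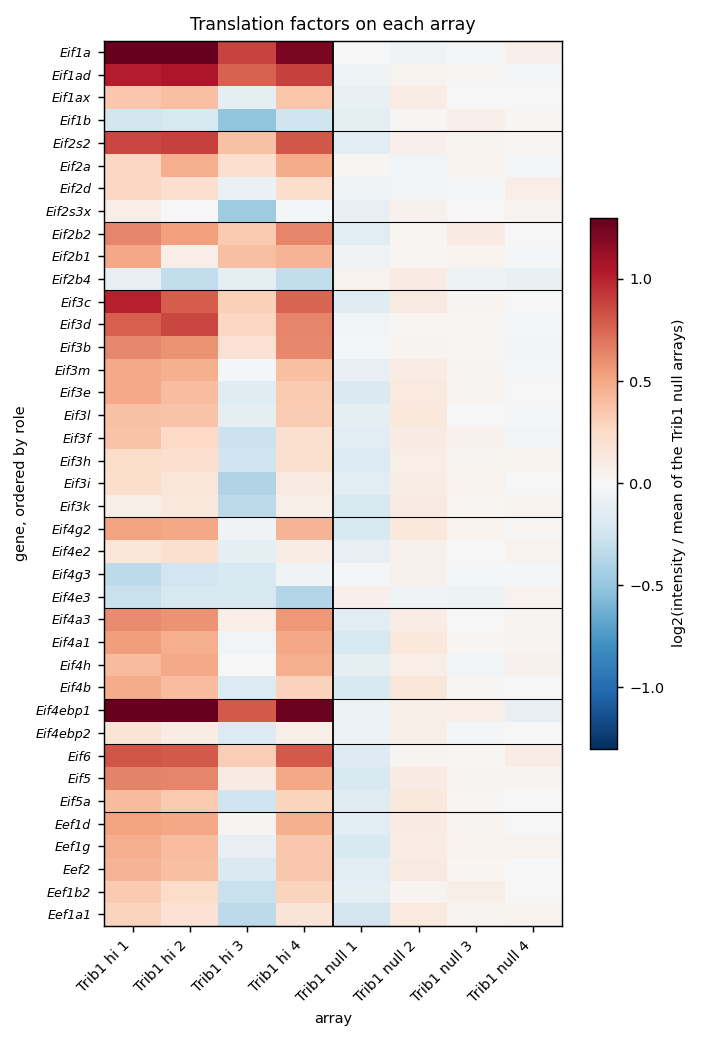
Log2 intensity of the 39 translation factor genes over 500 on every array, relative to the mean of the 4 arrays labelled Trib1 null (colour), with genes in rows grouped by role and the 8 arrays in columns. Trib1 hi 1, Trib1 hi 2 and Trib1 hi 4 are red for most genes, with medians of 0.44, 0.40 and 0.35, while Trib1 hi 3 is paler, with a median of -0.11.

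Promoter sequences from RefSeq (assembly GRCm38.p6; 250 bases before to 50 after each start) were found for 34 of the 45 genes. None was found for Eif4ebp1, Eif1a, Eif6 and Eef1d, all called higher, nor for Eif4e3, called lower, so the motif counts leave them out. A few are shown to set genes with large increases beside genes that hold an E-box. The E-box CACGTG, which reads the same on both strands and is bound by MYC and related factors, stood in the window of 26.5% of members (9 of 34), against 8.09% of all 27025 genes with a promoter entry and 13.7% of bright tested genes. The ETS-type motif CCGGAAG, searched on both strands, stood in 38.2% of members (13 of 34), against 9.93% of all genes and 25.3% of bright ones. A gene with several starts was counted as holding a motif if any window held it.

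Of the 9 genes with CACGTG, 1 (Eif4h) was called higher, 1 (Eif1b) lower and 7 neither. Of the 25 without it, 12 were higher and 0 lower. Both counts depended on Trib1 hi 3. Without that array Eef2, Eif3f, Eif4a1 and Eif5a, which hold CACGTG, were also called higher. So were Eef1b2, Eif1ax, Eif2d, Eif3l, Eif4b and Eif4e2, which do not hold it, while Eif2b4 and Eif4g3 were then called lower. With CCGGAAG, 5 of 13 were higher and 1 lower; without it, 8 of 21 were higher and 0 lower. These are counts of letters in a window and no test was run on them. Stretches before the start are printed in lower case, with the E-box and the ETS-type motif in capitals on whichever strand they were found. The counts above are over the whole window: Eif1ad holds 2 ETS-type motifs and Eif1b 1 outside the stretches printed. Eif2s2 (chr2:154892907-154893006, minus strand), Eif3c (chr7:126566367-126566466, minus strand) and Eif1ad (chr19:5366713-5366812, plus strand) are genes with large increases. Eif4h (chr5:134639410-134639519, minus strand) and Eif4a1 (chr11:69672424-69672623, minus strand) hold an E-box and read higher by 1.28-fold and 1.31-fold, the latter without passing the test. Eif3k (chr7:28981889-28981948, minus strand) and Eif1b (chr9:120492546-120492605, plus strand) hold one too, and read level and lower.
Eif2s2: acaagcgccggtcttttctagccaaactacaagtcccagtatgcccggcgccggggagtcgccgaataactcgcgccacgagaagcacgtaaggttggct
Eif3c: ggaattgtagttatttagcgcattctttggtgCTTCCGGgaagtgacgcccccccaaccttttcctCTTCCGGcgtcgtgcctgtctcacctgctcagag
Eif1ad: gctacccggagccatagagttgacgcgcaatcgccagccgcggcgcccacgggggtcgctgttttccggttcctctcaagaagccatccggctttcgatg
Eif4h: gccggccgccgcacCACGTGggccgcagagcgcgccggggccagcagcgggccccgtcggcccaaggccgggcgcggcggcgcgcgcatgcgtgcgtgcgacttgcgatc
Eif4a1: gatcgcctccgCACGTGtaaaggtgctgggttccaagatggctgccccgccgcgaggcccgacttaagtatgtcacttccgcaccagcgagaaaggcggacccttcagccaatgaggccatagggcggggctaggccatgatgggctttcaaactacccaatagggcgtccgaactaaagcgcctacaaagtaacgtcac
Eif3k: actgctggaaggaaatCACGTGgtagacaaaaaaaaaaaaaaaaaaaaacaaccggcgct
Eif1b: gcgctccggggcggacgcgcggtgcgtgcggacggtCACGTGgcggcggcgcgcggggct

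Genes of the small-subunit factors eIF1 and eIF1A divided. Eif1a, which encodes eIF1A, a protein that binds the decoding site of the small subunit during scanning, read 7842, 8059.8, 5786 and 7361 in the group labelled Trib1 hi and 3161, 3057, 3086 and 3287 in the group labelled Trib1 null. Every value of the first group lay above every value of the second, and the means were 7262 ± 1027 (SD, n = 4) and 3148 ± 103, a 2.31-fold difference (adjusted p = 2.22e-11); a second probe set gave 2.36-fold. Eif1ax, its X-linked relative that encodes nearly the same protein, read 9627, 9850.4, 6951 and 9684 against 7028, 8069, 7497 and 7544, so that Trib1 hi 3 lay below all 4 of the other group and the remaining 3 above them. Its difference of 0.25 ± 0.11 (SE) on the log2 scale missed the threshold (adjusted p = 0.105) and passed without Trib1 hi 3 (0.37, adjusted p = 0.000497; alternatives ranging from 8.60e-05 to 0.757). The change of Eif1a exceeded that of Eif1ax by 0.95 on the log2 scale (exact two-sided permutation p = 0.0286, the smallest that 4 against 4 arrays allow, and 0.0286 after adjustment over the 2 paralog pairs tested of 9 listed). The ratio of the paralogs separated all 4 arrays of each group. That comparison used the brightest probe set of each gene. A dimmer Eif1ax probe set read 783, 809, 1064 and 952 against 623, 443, 543 and 525. It did not overlap between the groups and gave 1.69-fold before the floor of 500. Eif1ax was also called higher after quantile normalization, with equal medians over bright probe sets and with the mean of all probe sets. Whether the probe sets of these near-identical genes cross-hybridise was not tested.

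Eif1ad, an eIF1A domain protein, read 2469.9, 2529, 2068 and 2259 against 1168, 1259, 1233 and 1208, 1.92-fold higher without overlap (adjusted p = 5.40e-09). Eif1b, a paralog of the start-codon selection factor eIF1, went down: it read 3072, 3146, 2544 and 3033 against 3357, 3679, 3800.4 and 3678. All 4 arrays labelled Trib1 hi lay below the others, by 1.23-fold between means of 2949 ± 274 (SD, n = 4) and 3629 ± 190.1 (adjusted p = 0.0119); without Trib1 null 3 it missed the threshold (adjusted p = 0.0549), as it did without a variance trend (0.113, alternatives ranging from 2.94e-07 to 0.568). Eif1 itself was not analysed here, since no probe set with a single symbol carries that name.

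**Figure D2:**
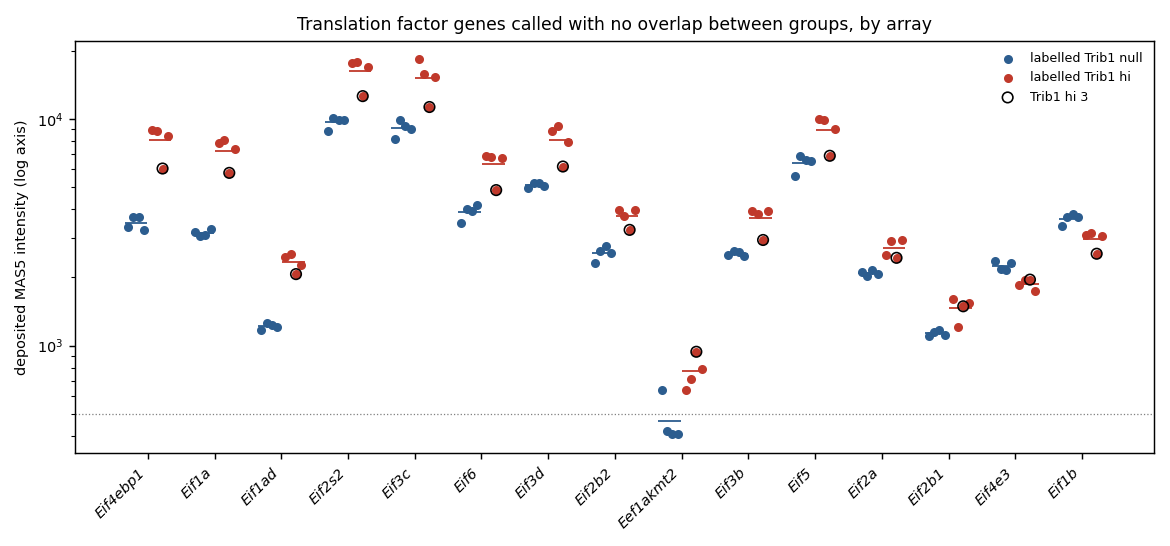
Deposited MAS5 intensity (log axis) on each array for the 15 genes called with no overlap between groups, with red points for the arrays labelled Trib1 hi, blue for Trib1 null, horizontal bars for group means, an open circle around Trib1 hi 3 and a dotted line at 500. Eif4ebp1 and Eif1a lie farthest apart, 2.32-fold and 2.31-fold, and only the last pair on the right, Eif4e3 and Eif1b, run downwards.

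eIF2 carries the initiator tRNA, and of its subunit genes Eif2s2 and Eif2s3x were measured. Eif2s2, the beta subunit, read 17706, 17901, 12622 and 16982 against 8824, 10124, 9937 and 9877. All arrays labelled Trib1 hi, Trib1 hi 3 included, lay above the other group, and the mean was 1.68-fold higher (16303 ± 2485 (SD, n = 4) against 9691 ± 587, adjusted p = 2.34e-05, but 0.239 with the mean of all probe sets; alternatives ranging from 3.04e-17 to 0.950). Eif2s3x, the X-linked gamma subunit, read 7535, 7138, 5156 and 6962 against 6593, 7387, 7130.1 and 7300.1, with the groups overlapping and a log2 difference of -0.10 ± 0.11 (SE), whose 95% interval ran from -0.32 to 0.13 (adjusted p = 0.592). After quantile normalization it was called lower, with a log2 difference of -0.23 (adjusted p = 5.38e-06, alternatives ranging from 5.38e-06 to 0.778). The same call held with equal medians over bright probe sets and with the mean of all probe sets. Without Trib1 hi 3 the log2 difference was 0.02 (adjusted p = 0.749). Another Eif2s3x probe set over 500 on every array overlapped, at 0.916-fold. A dimmer Eif2s3x probe set read 428, 293, 692 and 466 against 895, 837, 898 and 961. It did not overlap between the groups and gave 0.523-fold before the floor of 500. Whether the Eif2s3x probe sets also read the Y-linked Eif2s3y was not tested. Both Eif2s3x and Eif1ax lie on the X chromosome. Xist RNA coats and silences an X in female cells. It read 4.79 to 102 in the group labelled Trib1 hi and 8286 to 9709 in the other, and its part in these values was not tested. Since Xist separated all arrays by group, whatever lies behind it cannot be told apart from the labels for any of the 45 genes. The alpha subunit, Eif2s1, was not analysed here.

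Eif2a, which encodes eIF2A, a protein able to deliver the initiator tRNA without eIF2, read 2519.7, 2898, 2440.2 and 2932 against 2114, 2037, 2159.9 and 2061, 1.29-fold higher without overlap (adjusted p = 0.00292, but 0.0588 without a trend; alternatives ranging from 7.77e-05 to 0.768). Eif2d, which acts in re-initiation and recycling, read 3093, 2985, 2433 and 3014 against 2499, 2514, 2555 and 2729.9 and missed the threshold (log2 difference 0.16 ± 0.09 (SE), adjusted p = 0.254). It passed without Trib1 hi 3 (0.24, adjusted p = 0.00273; alternatives ranging from 0.00273 to 0.707), but a second Eif2d probe set over 500 on every array pointed down, at 0.795-fold.

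eIF2B, the exchange factor that reloads eIF2 with GTP, was measured through 4 of its subunits. Eif2b2, the beta subunit, read 3985, 3716, 3242 and 3969.8 against 2319, 2607, 2764 and 2553, 1.46-fold higher without overlap (adjusted p = 2.72e-05). Eif2b1, the alpha subunit, read 1611, 1203, 1491 and 1539 against 1099, 1152, 1169.9 and 1118, 1.29-fold higher (adjusted p = 0.0167); that call ended without Trib1 hi 1 (adjusted p = 0.0875) or Trib1 hi 4 (0.0631), with bright probe sets set to equal medians (0.206), with the mean of all probe sets (0.0583) or without a trend (0.0920, alternatives ranging from 3.78e-05 to 0.754). Eif2b4, the delta subunit, lay lower on all 4 arrays labelled Trib1 hi, at 1207, 1042, 1205 and 1047 against 1342, 1408, 1247 and 1218, and missed the threshold (log2 difference -0.21 ± 0.12 (SE), adjusted p = 0.186), passing without Trib1 hi 3 (-0.25, adjusted p = 0.0317; alternatives ranging from 0.0317 to 0.552). The only probe set of Eif2b5, the catalytic epsilon subunit, read 2.49 to 68.7, in the range where arrays cannot be compared.

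eIF3, the largest initiation factor, joins the small subunit, and 10 of its genes were measured. Of these, 4 were called higher (Eif3c, Eif3d, Eif3b and Eif3m), 0 lower and 6 neither. Eif3c read 18317, 15731, 11299 and 15314 against 8141, 9878, 9313 and 9030.4, 1.67-fold higher (adjusted p = 4.81e-05), and its second probe set 1.92-fold. Eif3d, a subunit able to bind the cap of some mRNAs, read 8811, 9334, 6172 and 7946 against 4984, 5232, 5228 and 5059, 1.57-fold higher (adjusted p = 2.13e-05, but 0.113 with the mean of all probe sets; alternatives ranging from 4.53e-11 to 0.902). Eif3b, a scaffold of the complex, read 3921, 3803, 2925 and 3911 against 2509.5, 2603, 2579 and 2492, 1.43-fold higher (adjusted p = 0.000104). In each of these 3 genes the lowest array labelled Trib1 hi, Trib1 hi 3, still lay above the highest of the other group.

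The other 7 eIF3 genes, Eif3e, Eif3f, Eif3h, Eif3i, Eif3k, Eif3l and Eif3m, ran from 1.00-fold to 1.27-fold, with a median log2 difference of 0.14 against 0.64 for Eif3b, Eif3c and Eif3d. In all 7 the groups overlapped, and Trib1 hi 3 was the lowest of its group. Eif3m, the highest of them, read 8475, 8313, 5962 and 7868 against 5573, 6441, 6149 and 5908 (1.27-fold, adjusted p = 0.0174), and that call ended without Trib1 hi 1 (adjusted p = 0.0830), Trib1 hi 2 (0.0692), Trib1 hi 4 (0.0550) or Trib1 null 1 (0.0560), and with no filter (0.0612), the mean of all probe sets (0.0717), no shared variance (0.127) or no trend (0.163, alternatives ranging from 4.76e-06 to 0.781). Eif3k, the lowest, read 12845, 13407, 9595 and 12862 against 10545, 13205, 12394 and 12589.5, with an interval of -0.27 to 0.25 around a log2 difference of -0.01. Without Trib1 hi 3 the log2 differences were 0.37 for Eif3l (adjusted p = 0.00123), 0.42 for Eif3e (0.00257), 0.28 for Eif3f (0.0137) and 0.23 for Eif3h (0.0242), all of which then passed, with alternatives ranging from 2.87e-05 to 0.758, 2.59e-07 to 0.786, 0.000270 to 0.852 and 0.0164 to 0.924. Eif3i, at 0.17, adjusted p = 0.0678, and Eif3k, at 0.10, adjusted p = 0.334, did not. The split of eIF3 into these sets was made after their values were seen, and the difference between the sets was not tested. Eif3b, Eif3c and Eif3d had a median signal of 6596 and the other 7 of 13673.

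**Figure D3:**
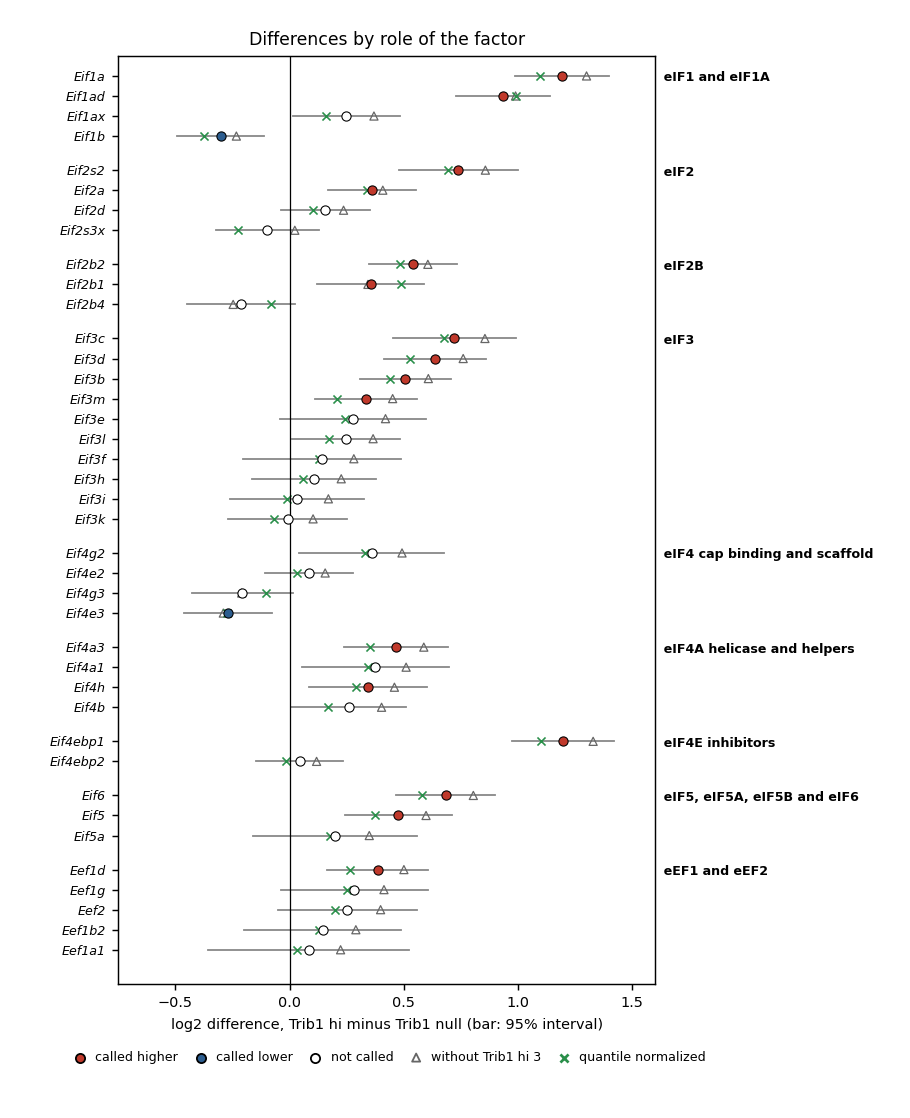
Log2 difference between the groups (labelled Trib1 hi minus Trib1 null) for the 39 genes over 500 on every array, by role, with 95% intervals; filled circles passed the test, triangles are without Trib1 hi 3 and crosses after quantile normalization. Within eIF3 the filled circles of Eif3c, Eif3d and Eif3b sit at 0.72, 0.64 and 0.51, apart from Eif3k at -0.01, and Eif1b and Eif4e3 sit left of 0 in all 3 settings.

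The largest fold among the 39 genes over 500 on every array was that of an inhibitor of cap binding. Eif4ebp1, which encodes 4E-BP1, a target of mTORC1 that blocks eIF4E and is also known as a target of the stress transcription factor ATF4, read 8920.3, 8884, 6048 and 8391 against 3326, 3677, 3693 and 3225. All 4 arrays labelled Trib1 hi lay well above the others, 2.32-fold between means of 8061 ± 1363 (SD, n = 4) and 3480.3 ± 239.9 (adjusted p = 1.28e-10, but 0.115 with the mean of all probe sets; alternatives ranging from 1.23e-34 to 0.851). Its paralog Eif4ebp2 read 3480.4, 3281, 2706 and 3223 against 2915, 3239, 3044 and 3071, overlapping, with a log2 difference of 0.04 ± 0.09 (SE) and a 95% interval of -0.15 to 0.24 (adjusted p = 0.816). The change of Eif4ebp1 exceeded that of Eif4ebp2 by 1.15 on the log2 scale (exact two-sided permutation p = 0.0286, adjusted 0.0286), and the ratio separated all 4 arrays of each group.

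Of 5 cap-binding and scaffold genes, 0 were called higher and 1 lower, Eif4e3. The probe set of Eif4e read 3.79 to 71.3 and gives no usable level. Eif4e2, a cap-binding relative linked to repression, read 2952, 3056, 2427 and 2842 against 2466, 2757, 2635 and 2739.9 (log2 difference 0.09 ± 0.09 (SE), adjusted p = 0.585; without Trib1 hi 3 0.16, adjusted p = 0.0398, alternatives ranging from 0.0398 to 0.946). Eif4e3, another cap-binding relative, read 1848, 1952, 1955 and 1738 against 2358, 2189, 2158 and 2324, 1.20-fold lower without overlap (adjusted p = 0.0271), and its second probe set was also lower, at 0.642-fold. The Eif4e3 call was narrow: it ended without Trib1 hi 1 (adjusted p = 0.0652), Trib1 hi 4 (0.105) or any of Trib1 null 1 to 4 (0.0992, 0.0525, 0.0574 and 0.106), and without a trend (0.102; alternatives ranging from 0.00285 to 0.550).

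Of the eIF4G family, Eif4g2, a scaffold that lacks the eIF4E site and serves cap-independent initiation, read 25058, 24683, 16963 and 23721 against 15085, 19179, 18019 and 17614. Trib1 hi 3 lay within the other group and the other 3 above it, and the difference of 0.36 ± 0.16 (SE) missed the threshold (adjusted p = 0.0822) but passed without Trib1 hi 3 (0.49, adjusted p = 0.00130; alternatives ranging from 5.01e-10 to 0.814). The other 2 Eif4g2 probe sets over 500 on every array did not overlap between the groups, at 1.53-fold and 1.67-fold, against 1.29-fold for the brightest one used here. Eif4g3, a scaffold that binds eIF4E, read lower on all 4 arrays, at 1136, 1209, 1253 and 1395 against 1422, 1494, 1416 and 1417, and missed the threshold (log2 difference -0.21 ± 0.11 (SE), adjusted p = 0.171; without Trib1 hi 3 -0.21, adjusted p = 0.0481, alternatives ranging from 0.0367 to 0.965). Eif4g1 was not analysed here.

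The helicase eIF4A and its helpers all had a positive fitted difference, and 2 of 4 genes passed. Eif4a3, the eIF4A relative of the exon junction complex, read 9079, 8878, 6323 and 8768 against 5401, 6351, 5936 and 6066, 1.39-fold higher (adjusted p = 0.00135, but 0.313 with the mean of all probe sets, 0.0605 with no shared variance, 0.0780 without a trend; alternatives ranging from 2.76e-08 to 0.830). Eif4h, which stimulates eIF4A, read 14178, 15011, 10652 and 14804 against 9777, 11384, 10462 and 11122, 1.28-fold higher (adjusted p = 0.0366). That call ended without any array except Trib1 hi 3. Without Trib1 hi 1, 2 or 4 the adjusted p was 0.0974, 0.139 and 0.138, and without Trib1 null 1 to 4 it was 0.126, 0.0520, 0.109 and 0.0723 (alternatives ranging from 8.92e-07 to 0.819). With replicate number as a block it missed the threshold as well (adjusted p = 0.0722), as it did with an offset of 32 (0.0599), a floor of 200 (0.0514), no filter (0.0635), no shared variance (0.121) or no trend (0.156), and the mean of all its probe sets turned its sign (log2 difference -0.15, adjusted p = 0.819). Eif4a1, the main helicase of eIF4F, read 26026, 24687, 17432 and 25213 against 15546, 19544, 17993 and 18242. The 3 arrays other than Trib1 hi 3 lay above the whole other group and Trib1 hi 3 within it, so that a 1.31-fold difference missed the threshold (adjusted p = 0.0708); without Trib1 hi 3 it was 0.51, adjusted p = 0.000852 (alternatives ranging from 1.93e-09 to 0.820). Eif4b, another helper, read 10583, 10007, 6666 and 9302 against 6609, 8409.7, 7655 and 7548 (log2 difference 0.26 ± 0.12 (SE), adjusted p = 0.121; without Trib1 hi 3 0.40, adjusted p = 0.00409, alternatives ranging from 0.00147 to 0.763).

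Among the factors of subunit joining, Eif6, which keeps the large subunit from joining early and takes part in making it, read 6847, 6769, 4857 and 6759 against 3480.2, 3991, 3942 and 4177, 1.62-fold higher without overlap (adjusted p = 4.27e-06). With the mean of all its probe sets, dim ones included, its log2 difference was -1.18 (adjusted p = 0.0967; alternatives ranging from 2.99e-12 to 0.920). Eif5, the factor that triggers GTP hydrolysis by eIF2, read 10008, 9909.5, 6883 and 9028 against 5588, 6863, 6568 and 6543, 1.40-fold higher (adjusted p = 0.00144, but 0.0676 with no shared variance, 0.0819 without a trend; alternatives ranging from 1.42e-08 to 0.837), and its 4 probe sets over 500 gave 1.23-fold to 1.47-fold. Trib1 hi 3, at 6883, cleared the highest array of the other group by a small margin. Eif5a, the hypusine-bearing factor that helps the ribosome past difficult peptides, read 31906, 30266, 20095 and 29262 against 21441, 26378, 24297 and 23827, with Trib1 hi 3 the lowest of all 8 arrays. Its log2 difference of 0.20 ± 0.18 (SE) had a 95% interval of -0.16 to 0.56 (adjusted p = 0.479) and passed without Trib1 hi 3 (0.35, adjusted p = 0.00561; alternatives ranging from 5.04e-06 to 0.772).

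Elongation factor genes include Eef1a1, the brightest of the 45. Of 6 measured, 1 was called higher (Eef1d) and 0 lower. Eef1d, the eEF1 delta subunit of the exchange factor, read 8337, 8181, 5929 and 7973 against 5222, 6206, 5929 and 5771, 1.32-fold higher (adjusted p = 0.00619, but 0.0920 with no shared variance, 0.118 without a trend; alternatives ranging from 4.98e-07 to 0.798), Trib1 hi 3 lying within the other group. Eef1a1, which encodes eEF1A, read 48708, 45189.8, 31292 and 44705 against 33642, 43493, 40779 and 41032, overlapping, with a log2 difference of 0.08 ± 0.22 (SE) and a 95% interval of -0.36 to 0.52 (adjusted p = 0.856). Eef2 read 21640.2, 20968, 14019 and 20392 against 14422, 17272, 16193 and 15970.5, where 3 arrays lay above the other group and Trib1 hi 3 below it (log2 difference 0.25 ± 0.15 (SE), adjusted p = 0.240; without Trib1 hi 3 0.40, adjusted p = 0.00131, alternatives ranging from 5.92e-07 to 0.777). Eef1g and Eef1b2, further subunits of the exchange factor, differed by 1.23-fold and 1.12-fold (adjusted p = 0.205 and 0.609), and passed without Trib1 hi 3 (log2 differences 0.41, adjusted p = 0.00268, and 0.29, adjusted p = 0.00498; alternatives ranging from 1.97e-08 to 0.789 and 0.000498 to 0.825). Eef1a2, the form of muscle and neurons, read 4.05 to 314, below 500 on every array.

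The mRNAs of Eef1a1, Eef1b2, Eef1d, Eef1g, Eef2, Eif3e, Eif3f, Eif3h and Eif4b are known to start with a terminal oligopyrimidine (TOP) tract, through which mTORC1 and LARP1 control their translation. This list of 9 was chosen after the values were seen. In it 1 gene was called higher, folds ran from 1.07 to 1.32 and the median log2 difference was 0.25; of the other 30 genes over 500 on every array, 15 were higher and 2 lower, folds ran from 0.813 to 2.32 and the median was 0.35. The TOP genes were brighter, with a median signal of 19787 against 6183, and both lists contain genes that passed only once Trib1 hi 3 was left out: without it 8 of 9 and 22 of 30 were called higher. No test compared the lists.

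**Figure D4:**
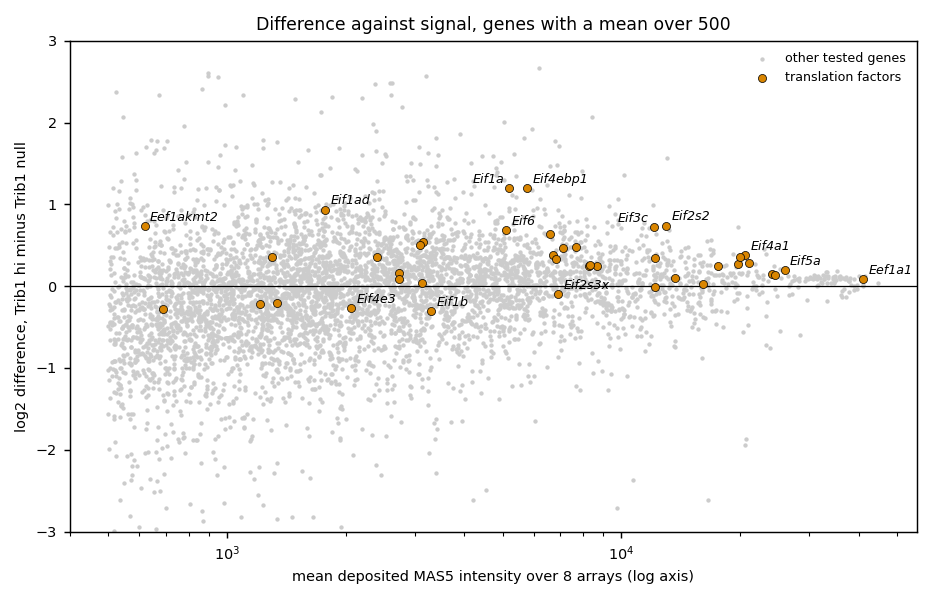
Fitted log2 difference (labelled Trib1 hi minus Trib1 null) against mean deposited intensity (log axis) for genes with a mean over 500; orange points are translation factors, grey points other tested genes, and other genes beyond 3 in either direction are not drawn. Most orange points lie right of 2000 and above 0 (31 of 35), and the brightest, Eef1a1, lies at 0.08.

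Of the enzymes that methylate eEF1A, Eef1akmt2 read 636, 714, 939 and 789.9 against 635, 418, 407 and 406. The groups did not overlap, but the lowest value of the group labelled Trib1 hi and Trib1 null 1 were almost the same, and the fold of at least 1.44 (adjusted p = 0.00488) is a lower bound because 3 arrays lay below 500. With bright probe sets set to equal medians it missed the threshold (adjusted p = 0.0973; alternatives ranging from 8.65e-07 to 0.931). Eef1akmt1 read 585, 477, 836 and 608 against 898, 667, 703 and 738 and missed the threshold (adjusted p = 0.300; without Trib1 hi 3 -0.43, adjusted p = 0.0273, alternatives ranging from 0.0273 to 0.619). Eef1aknmt read 3.58 to 139 and gives no usable level.

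Several members were measured more than once. Of 15 genes with more than 1 probe set over 500 on every array, 14 had all of them on the same side and Eif2d did not.

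Regulators and partners outside the 45 genes were counted from lists of 59 symbols, of which 53 were measured and 50 tested. Of these, 18 were called higher and 8 lower, against 11.1% and 19.7% of all tested genes. Of the 53 measured, 29 read over 500 on every array, so the share of bright genes is given too. Among genes with a mean over 2000, 29.0% were called higher and 22.6% lower. Without Trib1 hi 3 the counts for the listed genes were 23 and 17, where 2068 and 3772 of all 12228 tested genes were called. Of bright genes 49.6% and 23.7% were then called. With the mean of all probe sets, no shared variance and no trend, 9, 15 and 13 were higher and 2, 3 and 1 lower. All 4 genes of the set with eIF4E kinases, the eIF4A inhibitor and eEF2 kinase were called without overlap, 2 higher and 2 lower. Pdcd4, which binds eIF4A and blocks its helicase, read 5809.9, 6021, 4514 and 5638 against 9949, 12074, 11482 and 12308, 2.08-fold lower (adjusted p = 2.39e-09). Eef2k, the kinase that switches eEF2 off, was 1.46-fold higher (5692 ± 705 (SD, n = 4) against 3912 ± 144, adjusted p = 5.52e-05). The eIF4E kinases went apart. Mknk2 was 1.38-fold lower (adjusted p = 0.000862, alternatives ranging from 9.63e-13 to 0.825). Mknk1 was 1.28-fold higher (adjusted p = 0.00757, 0.0512 without Trib1 null 3, alternatives ranging from 7.33e-05 to 0.796). With the mean of all probe sets the difference of Mknk1 changed sign.

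Of 9 tested genes of mTORC1, its inputs and Larp1, 3 were higher and 2 lower. Larp1, which binds the cap and start of TOP mRNAs, read 3268, 3222, 2757 and 3000.2 against 1526, 1438, 1553 and 1540.5, 2.02-fold higher without overlap (adjusted p = 2.04e-10). Rheb, the GTPase that switches mTORC1 on, was 1.46-fold higher (adjusted p = 0.000380). Mtor itself read 299, 361, 641 and 503 against 727, 782, 736 and 721, at least 1.38-fold lower (adjusted p = 0.00577, alternatives ranging from 0.00125 to 0.693). Deptor, the other gene called lower, lay below 500 on every array (adjusted p = 0.0380). Of 8 tested eIF2 kinase and phosphatase genes, 1 was higher and 3 lower. Eif2ak3, the kinase PERK of the endoplasmic reticulum, read 595, 544, 924 and 645 against 993, 913, 909 and 1025, 1.42-fold lower with Trib1 hi 3 inside the other group (adjusted p = 0.0109; 0.0509 without Trib1 hi 2, alternatives ranging from 0.000289 to 0.911). Eif2ak2, the kinase activated by double-stranded RNA, and Eif2ak4, the kinase GCN2 that senses uncharged tRNA, were also called lower but lay below 500 on some or all arrays of both groups, with means of 184 ± 192 (SD, n = 4) against 467 ± 88.1 and 328 ± 163 against 587 ± 123. The Eif2ak4 call ended without Trib1 hi 1 (adjusted p = 0.0884) or Trib1 null 1 (0.0670, alternatives ranging from 0.00168 to 0.282).

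Of 8 tested genes of termination and recycling, 4 were higher and 0 lower. Denr, which with MCTS1 recycles small subunits and supports re-initiation, read 5803, 5591, 4118 and 5478 against 2635, 2887, 2777 and 2926, 1.87-fold higher (adjusted p = 1.32e-08). With the mean of all probe sets the difference of Denr changed sign. Next by fold were Hbs1l (1.39-fold, adjusted p = 0.000383), which rescues stalled ribosomes, and Gspt1 (1.37-fold, adjusted p = 0.000463), the release factor eRF3. Of 7 tested enzymes that modify eIF5A and eEF2, 4 were higher and 0 lower. Dph6, Dph3 and Dph5, which make the diphthamide of eEF2, differed by at least 2.16-fold, by 1.80-fold and by 1.61-fold (adjusted p = 8.69e-08, 5.78e-08 and 0.000336). Dohh, the hydroxylase that completes hypusine on eIF5A, is named here with its values known, and was at least 1.68-fold higher (910.1 ± 144 (SD, n = 4) against 501 ± 119, adjusted p = 0.000353), whereas Dhps, which starts hypusine, read 691 ± 168 against 896 ± 91.5 (adjusted p = 0.0706; 0.00808 without Trib1 hi 3, alternatives ranging from 0.00808 to 0.445).

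Of 5 tested poly(A)-binding proteins and partners, 1 was higher and 0 lower: Pabpc4, an inducible poly(A)-binding protein, 1.62-fold higher (adjusted p = 5.78e-06), while Pabpc1 read 35301 ± 6344 against 33745 ± 3500.2 (adjusted p = 0.906). Of 5 tested multisynthetase and selenocysteine partners, 3 were higher and 0 lower: Eef1e1, Aimp2 and Aimp1, scaffold proteins of the multisynthetase complex, by 2.35-fold, 2.02-fold and 1.76-fold (adjusted p = 1.21e-11, 7.14e-10 and 9.14e-08). Of 4 other initiation helpers, 0 were higher and 1 lower. This was the helicase Dhx29, at least 1.33-fold lower (197 ± 181 against 664 ± 97.4, adjusted p = 0.00110, alternatives ranging from 6.97e-07 to 0.530).

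**Figure D5:**
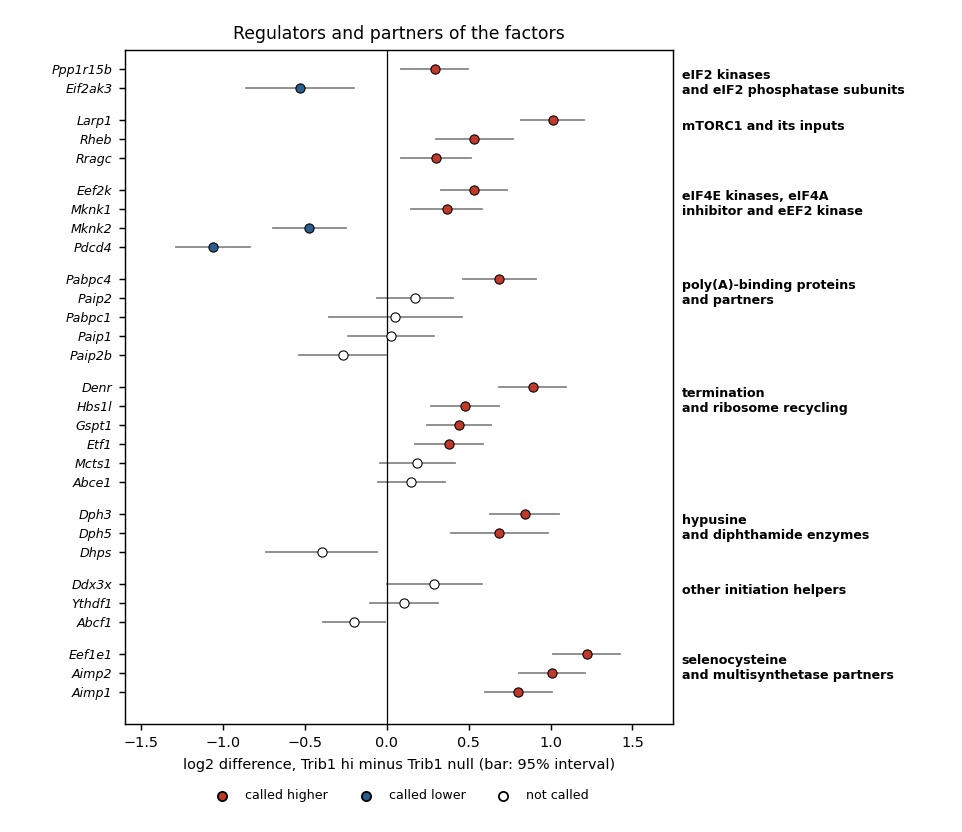
Log2 difference between the groups (labelled Trib1 hi minus Trib1 null, with 95% intervals) for the 29 regulators and partners over 500 on every array, by list; filled circles passed the test. Larp1, Denr and Eef1e1 lie right of 0 at 1.01, 0.89 and 1.22 and Pdcd4 lies left of it at -1.06.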

How the data were processed

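Total RNA (100 ng per sample) of 8 samples was turned into biotin-labelled cRNA and hybridised to Affymetrix arrays, 1 array per sample, per the labels' protocols. The deposited value is a linear intensity per probe set, made with MAS5 per the submitters' processing notes; its version and settings are not stated there. MAS5 scales each array to a common trimmed mean, which was about 500 on all 8. Of 45141 probe sets, 28898 carry exactly 1 gene symbol; 551 with several symbols and 104 controls were not used.

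From these values log2(intensity + 2.71) was fitted with limma (version 3.58.1, under R 4.3.3; lmFit and a trended eBayes) on all 8 arrays, with no covariate. The offset is the 25th percentile of all values. A gene was tested if its log2 mean exceeded 3.01 (the 40th percentile of probe sets), and p-values were adjusted by Benjamini-Hochberg over all 12250 genes at a threshold of 0.05. Standard errors and 95% intervals come from that fit. Paralog pairs over 500 on every array were compared with an exact permutation test. Precision is limited by having 4 arrays per group.

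Values were named by rule: members past the threshold without overlap, up to 10 per direction by fold, a list of 12 factors whatever their result (Eif4g1, Eif2s1 and Eif4a2 of it were not analysed here), and up to 3 genes per list of related genes. Eif1ax, Eif2b4, Eif2d and the other members with values were added to these to account for every member. The members and lists were chosen with earlier results of these data known. No 2 arrays were identical; Spearman correlations over tested genes were 0.984 to 0.990 within groups and 0.940 to 0.947 between them. Replicate numbers were checked for pairing by correlation, a check that the compressed arrays limit, and the main fit used no pairing. In all, 22 alternatives were run on scaling, offset, floor, filter, probe set, variance, replicate block and each array left out.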

Additional observations from a re-analysis of the deposited data

Results flagged for a closer look

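Here 45 genes in 2 groups gave 90 group values. In 25 of them, on the log2 scale of the fit, 1 array stood apart from the other 3 of its group. Its gap to the nearest of them, as a share of the group's range on that scale, exceeded Dixon's 95% critical value for 4 samples. Chance gives about 1 in 20 such groups. Trib1 hi 3 was the array in 16 values as the lowest and 4 as the highest. The 16 were genes over 500 on every array, with shares of 0.851 for Eef1b2, 0.869 for Eef1d, 0.863 for Eef2, 0.934 for Eif1ax, 0.852 for Eif2d, 0.849 for Eif2s2, 0.895 for Eif3b, 0.926 for Eif3h, 0.872 for Eif3k, 0.908 for Eif3l, 0.868 for Eif4a1, 0.903 for Eif4a3, 0.843 for Eif4ebp1, 0.859 for Eif4g2, 0.833 for Eif4h and 0.962 for Eif6. It was the highest in 4 genes that read below 500 on every array, with shares of 0.934 for Eef1a2, 0.967 for Eef1aknmt, 0.962 for Eif2b5 and 0.975 for Eif4e. Trib1 null 1 was the highest in 3 genes with arrays below 500, at 0.933 for Eef1akmt2, 0.917 for Eef1aknmt and 0.848 for Eif4e, and the lowest for Eif3h, at 0.830. Trib1 null 2 was the highest for Eif4g3, at 0.924. The genes share their arrays, so these 25 values are not independent. Trib1 hi 3 and Trib1 null 1 are also the arrays with the lowest 95th percentiles of all probe sets, 3733 and 3972; the part of this in the values was not tested.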

How the results depend on the processing

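The 17 members called higher became 31 after quantile normalization, 0 with equal array medians, 10 with the mean of all probe sets of a gene and 10 without a variance trend, and 14 to 31 with 1 array left out. The 2 called lower became 5, 0, 4 with equal medians over bright probe sets, 4 with a floor of 500 and 0 without a trend, and 0 to 5 with 1 array left out. Among all tested genes, the 1363 called higher became 3344 after quantile normalization, 167 with equal array medians and 725 with mean probe sets (1154 to 2068 with 1 array left out), and the 2409 called lower became 1317 with mean probe sets, 1379 with no shared variance and 1274 without a trend (1962 to 3772). The 18 related genes called higher became 28, 1 and 9 under quantile normalization, equal array medians and mean probe sets (16 to 23), and the 8 called lower became 2 with mean probe sets, 3 with no shared variance and 1 without a trend (6 to 17). Of genes called higher, log2 differences turned negative with equal array medians for Eef1akmt2 (-0.12), Eef1d (-0.47), Eif2a (-0.50), Eif2b1 (-0.50), Eif2b2 (-0.32), Eif2s2 (-0.12), Eif3b (-0.35), Eif3c (-0.14), Eif3d (-0.22), Eif3m (-0.52), Eif4a3 (-0.40), Eif4h (-0.52), Eif5 (-0.38), Eif6 (-0.18), Ppp1r15b (-0.57), Rheb (-0.33), Rragc (-0.56), Mknk1 (-0.49), Eef2k (-0.33), Pabpc4 (-0.17), Etf1 (-0.48), Gspt1 (-0.42), Hbs1l (-0.38), Dph3 (-0.016), Dph5 (-0.17) and Aimp1 (-0.058); that setting moved the median of all genes from 0.04 to -0.80. Among genes called in at least 1 of the settings compared, Eif4e (-0.63), Impact (0.46), Rptor (0.34) and Tsc1 (0.88) changed sign after quantile normalization, and with mean probe sets, which count dim ones equally, Eif4h (-0.15), Eif6 (-1.18), Mknk1 (-0.43), Pabpc1 (-1.37) and Denr (-0.53) did. The cause of these shifts was not tested. With replicate block, 16 members were called higher and 2 lower. Same-numbered arrays correlated at -0.51 to 0.49, and 1 of 4 arrays labelled Trib1 hi matched its own number best. Trib1 hi 3 matched Trib1 null 1 best, at 0.65, and these are the arrays with compressed signals. Because compression enters these correlations, they cannot tell whether same-numbered arrays share a culture or batch. The paralog differences stayed past the threshold in the scaling, offset and left-out-array settings run, at 0.90 to 0.98 for Eif1a and 1.12 to 1.21 for Eif4ebp1 with 1 array left out. Over all settings, 812 member values kept their direction and side of the threshold, 52 lost their call, 49 gained one, 17 reversed with a call in either setting, and 49 changed sign with a call in neither, 18 of these with equal array medians and 4 after quantile normalization. Of the members, 6 had an array below 500.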
